A study of Mus musculus with 12 samples.

Results

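Transcripts of 7 inflammatory cytokine genes were followed through mouse hematopoietic stem and progenitor cells that carried either a control shRNA or one that targets Rad21. The genes were tumor necrosis factor (Tnf), the interleukin 1 genes Il1a and Il1b with the receptor antagonist Il1rn, interleukin 6 (Il6), the granulocyte-macrophage colony-stimulating factor gene Csf2, and Il12b, which encodes the p40 subunit of interleukin 12 and interleukin 23. They were named by symbol, with no threshold on measured values, and all 7 were found by their Ensembl gene identifiers among the 46078 genes of the count table.

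The 12 libraries formed 4 groups of 3, all from bone marrow cells of C57BL/6 mice. In culture, LSK cells (lineage-negative, Sca-1+, c-Kit+) were infected with lentivirus carrying the luciferase control shRNA (shLuci) or the shRNA against Rad21 (shRad21), and the GFP+CD48-Sca-1+ fraction was sorted on day 3 after isolation. In vivo, infected LSK cells were transplanted and GFP+ LSK cells were sorted from the recipients 3 months later as the labels give it, again with shLuci or shRad21. The methods of the study give a later time for the sort, and the difference could not be settled here. All cells therefore carried a lentivirus with GFP and had been sorted for it, and no group was free of virus or of a sort. Culture libraries were made with TruSeq RNA v2 and in vivo libraries with SMART-Seq v4 followed by Nextera XT, so the library kit, the sorted population and the setting cannot be told apart in any comparison between culture and in vivo. The labels do not say whether the libraries of a group came from separate cultures or animals, so each p-value measures only the spread between these samples, which may be technical.

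Counts assigned to genes ranged from 15235129 to 29846689 per library. Levels are given as CPM, counts per 1000000 counts of a library after TMM scaling, and 3 counts, which were 0.107 to 0.211 CPM in these libraries, were taken as the smallest detectable amount. Rad21, the gene that encodes the cleavable ring subunit of cohesin, checked the labels. It had 5466, 8155 and 8677 counts in shLuci and 3731, 2704 and 3605 counts in shRad21 in culture, and 2646, 2456 and 2818 against 948, 1061 and 927 counts in vivo. The groups did not overlap in either setting, and the log2 fold change was -1.52 ± 0.09 (SE) in culture and -1.43 ± 0.07 in vivo. Each of the 9 markers of stem and progenitor cells that were examined, among them Kit, Ly6a, Cd34 and Mecom, was above the floor in each group.

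TNF and the interleukin 1 ligands are alarm cytokines that bind receptors on neighboring or the same cells and activate NF-kappaB and AP-1, which in turn drive transcription of further cytokine genes. Il1rn encodes a decoy ligand that occupies the interleukin 1 receptor without signaling, while Il6, Csf2 and Il12b are typical secondary products of such activation. Hematopoietic stem cells respond to these cytokines with division and with a shift toward myeloid output. Cohesin, which contains Rad21, holds sister chromatids together and forms chromatin loops.

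Promoters of 4 of the genes are shown because they belong to the genes whose counts the comparisons turn on, Tnf, Il1b and Il6, and to Il1a, which lies beside Il1b and whose groups overlapped. Each RefSeq window (GRCm38.p6) runs from 250 bases before the transcription start to 50 bases after it, 5′ to 3′ on the strand of the gene. The windows are chr17:35201958-35202257 (minus strand) for Tnf, chr2:129371090-129371389 (minus) for Il1b, chr5:30012864-30013163 (plus) for Il6 and chr2:129309923-129310222 (minus) for Il1a. Capitals mark matches to TATAAA on the strand of the gene, to the AP-1 motif TGANTCA on either strand, and to the kappaB motif on either strand.
Tnf: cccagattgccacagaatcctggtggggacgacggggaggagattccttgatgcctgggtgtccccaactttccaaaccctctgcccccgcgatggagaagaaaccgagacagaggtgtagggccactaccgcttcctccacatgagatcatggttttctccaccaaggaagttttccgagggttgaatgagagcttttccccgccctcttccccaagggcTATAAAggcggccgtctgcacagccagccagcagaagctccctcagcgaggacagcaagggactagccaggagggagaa
Il1b: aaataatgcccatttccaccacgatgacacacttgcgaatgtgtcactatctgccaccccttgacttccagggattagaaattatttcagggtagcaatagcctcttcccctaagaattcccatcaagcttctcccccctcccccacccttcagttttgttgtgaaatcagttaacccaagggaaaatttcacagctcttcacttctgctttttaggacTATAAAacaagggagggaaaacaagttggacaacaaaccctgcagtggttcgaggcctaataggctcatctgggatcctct
Il6: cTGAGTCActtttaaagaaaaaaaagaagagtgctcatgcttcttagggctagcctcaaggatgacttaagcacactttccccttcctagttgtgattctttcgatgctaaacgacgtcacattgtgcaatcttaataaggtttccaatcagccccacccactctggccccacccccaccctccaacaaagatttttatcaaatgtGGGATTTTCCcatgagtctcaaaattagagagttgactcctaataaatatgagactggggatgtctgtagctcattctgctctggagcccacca
Il1a: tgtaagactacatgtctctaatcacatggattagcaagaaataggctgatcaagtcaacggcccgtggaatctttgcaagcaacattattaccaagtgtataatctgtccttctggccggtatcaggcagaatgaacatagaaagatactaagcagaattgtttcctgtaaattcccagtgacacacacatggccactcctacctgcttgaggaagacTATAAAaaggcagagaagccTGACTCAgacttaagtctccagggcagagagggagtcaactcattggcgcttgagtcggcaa
All 7 genes had a RefSeq window. The RefSeq start of Csf2 lay 232 bases from its GENCODE start, so the lack of a match there describes that window only. Il1rn had 3 windows, and the 1 used lay 7 bases from the GENCODE start. TATAAA was found in those of Tnf, Il1a and Il1b, at -29, -32 and -31 from the start (first base), against 8.32% of 32817 windows of this length. AP-1 matched in 3 of the 7 (Il1a, Il1rn and Il6; 7.81% of all windows) and kappaB in 1 (Il6, at -44; 8.46% of all windows). None of the searched motifs overlapped another in these windows. A match, or the lack of one, describes the letters of these windows only.

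Tnf was by far the most abundant of the 7 transcripts in each of the 4 groups. On the RPKM scale, which divides CPM by the exonic length in kilobases, it averaged 44.1 ± 14.8 (SD, n = 3) in shLuci culture, where the gene next in level, Il1b, averaged 2.72 ± 0.757. The other 5 genes averaged below 1 RPKM in each group. Detection differed as widely. Tnf exceeded 3 counts in 12 of 12 libraries, Il1b in 10, Il1a and Il6 in 6 each, Il1rn in 4, Csf2 in 3 and Il12b in 1. Of the 21 gene-by-library values of a group, 16 exceeded the floor in shLuci culture and 8 in shRad21 culture, and 11 against 7 did so in vivo.

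**Figure D1:**
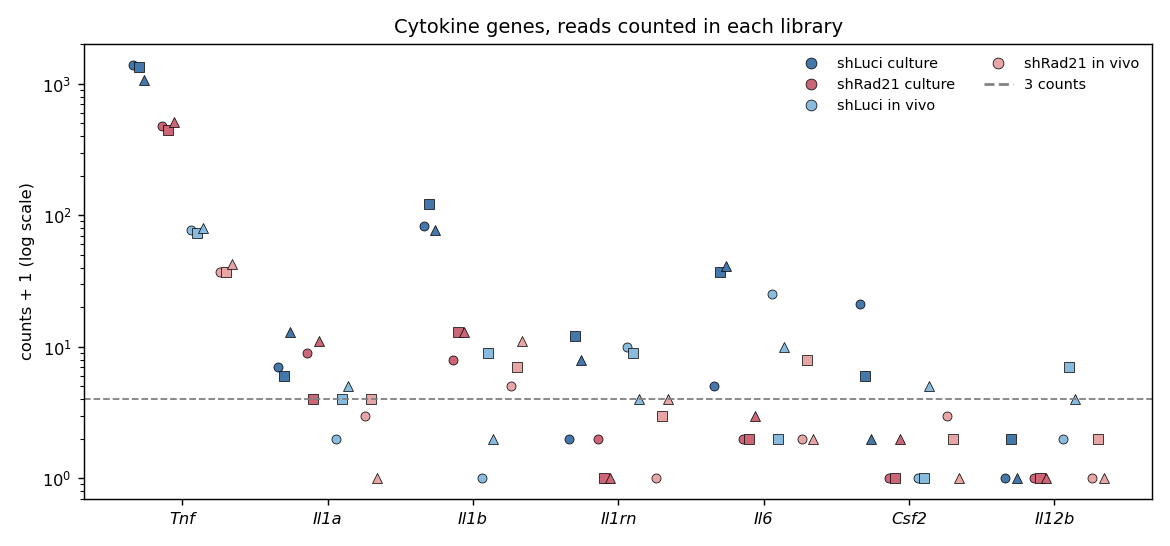
Reads counted for each cytokine gene (x axis) in each of the 12 libraries, as counts + 1 on a log scale (y axis), colored by group, with circles, squares and triangles for replicates 1, 2 and 3. The dashed line is the floor of 3 counts, and only Tnf lies above it in every library.

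In culture, the question was whether the members differ after knockdown of Rad21. The means of all 7 genes were lower in shRad21 than in shLuci, and the ranges of 5 of them, Tnf, Il1b, Il1rn, Il6 and Csf2, did not overlap in CPM. Of 26672 genes with at least 1 count, 11.6% lay lower without overlap in this comparison. In raw counts, which do not correct for depth, 3 of the 7 (Tnf, Il1b and Il6) did not overlap, against 2.25% of the genes. Only Tnf and Il1b had counts enough for the test across genes (edgeR quasi-likelihood, Benjamini-Hochberg adjusted p below 0.05), and both fell. Among the 15543 genes tested, 14.2% were called, 8.06% lower and 6.18% higher. Because Il1b passed the filter on low counts only through its shLuci libraries, the count of 2 is a description.

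Tnf had 1399, 1336 and 1072 counts in the shLuci libraries and 476, 448 and 516 in the shRad21 libraries. Normalized, these were 98.2, 68.6 and 50.1 CPM against 19.6, 22.6 and 18.4 CPM. The lowest control library was still above the highest knockdown library. The controls were spread over a wider range (72.3 ± 24.3 CPM, SD, n = 3) than the knockdown libraries (20.2 ± 2.19 CPM). The log2 fold change was -1.83 ± 0.20 (SE; edgeR adjusted p = 0.000255), and it stayed between -2.04 and -1.55, past the threshold, when each library was left out in turn. Tnf (ENSMUSG00000024401) lies on chr17:35199381-35202007 on the minus strand of GRCm38 and shares no exonic bases with another gene.

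Il1b fell more steeply. It had 82, 122 and 76 counts in shLuci and 7, 12 and 12 in shRad21, or 5.19 ± 1.44 against 0.441 ± 0.159 CPM (SD, n = 3). The groups were far apart, with 3.55 CPM in the lowest control library and 0.606 CPM in the highest knockdown library. The log2 fold change was -3.55 ± 0.32 (SE; edgeR adjusted p = 7.48e-05). Il1b (ENSMUSG00000027398; chr2:129364570-129371139, minus strand) shares 1.31% of its exonic bases with the antisense gene Il1bos. How strand was treated in counting is not given in the sources used here, so reads of both cannot be told apart over that stretch. Il1bos itself had 12, 39 and 39 counts in shLuci and 12, 21 and 29 in shRad21, groups that overlapped.

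Il1a, the sister ligand that signals through the same receptor, had few reads in culture, and no test compared it with Il1b. It had 6, 5 and 12 counts in shLuci and 8, 3 and 10 in shRad21, with overlapping groups (0.413 ± 0.152 against 0.279 ± 0.111 CPM, SD, n = 3). The pooled counts of 23 and 21 gave a control level 1.43 times that of the knockdown, with a 95% counting interval of 0.758 to 2.72, so a difference was not detectable at this depth. Il1a (ENSMUSG00000027399; chr2:129299610-129309972, minus strand) shares 11.2% of its exonic bases with the antisense gene Gm14023, which had 2 to 18 counts per library.

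Il1rn was close to the floor in culture. The controls had 1, 11 and 7 counts and the knockdown libraries 1, 0 and 0. One library of each group thus stood on a single read, and the groups were apart in CPM only because the shRad21 library was deeper (0.0702 against 0.0412 CPM). Over the groups the ratio of control to knockdown was 24.9 with a counting interval of 3.95 to 1033. The gene (ENSMUSG00000026981) lies on chr2:24336853-24351494, plus strand.

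Il6 was detected in all 3 control libraries and in none of the knockdown libraries above the floor. It had 4, 36 and 40 counts in shLuci and 1, 1 and 2 in shRad21, so the groups did not overlap. Replicate 1 of the controls, the shallowest library, was the low one, also after correction for depth. It had 0.281 CPM, beside 1.85 and 1.87 CPM in replicates 2 and 3. The control level was 26.2 times the knockdown level (counting interval 9.83 to 98.4 from 80 and 4 reads). Il6 did not reach 10 counts in 3 libraries and was left out of the main test. It entered other filtered fits only through shLuci libraries, where it was high, so the values of those fits are a description and no support. With a library left out, the filter also asked for fewer libraries. They were -4.49 in 1 model of the 12 libraries (edgeR adjusted p = 0.00801), -4.93 without shLuci replicate 1 (0.000189), and -4.75 to -4.34 without any 1 of the shRad21 libraries (0.0102 to 0.0107). Without a filter on any gene, Il6 was called at -4.49 (3.68e-15). That fit estimated a smaller spread, with an SE of 0.11 for Tnf beside 0.20 in the main fit. Its p-values are thus not on the scale of the main fit and are a description. Il6 (ENSMUSG00000025746) lies on chr5:30013114-30019981, plus strand.

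Csf2 had 20, 5 and 1 counts in shLuci and 0, 0 and 1 in shRad21. Most of the control reads were in replicate 1, and replicate 3 of both groups held a single read, so the raw counts touched. The ratio over the groups was 34.0, with a counting interval of 5.59 to 1395. Without the filter on low counts, Il1rn (-4.10 ± 1.01, SE; edgeR adjusted p = 0.000829), Il6 and Csf2 (-4.66 ± 0.91; 8.28e-06) were called lower as well, which brought the called members to 5. Il1a (-0.49, edgeR adjusted p = 0.671) and Il12b were not. That fit called 2988 of the 26672 genes with at least 1 count. The added members had most of their reads in shLuci, where they were high, so their calls are a description. Csf2 (ENSMUSG00000018916; chr11:54247271-54249667, minus strand) shares 12% of its exonic bases with the antisense gene Gm12223, which had 0 counts throughout.

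Il12b (ENSMUSG00000004296; chr11:44400063-44414033, plus strand) was not detectable in culture at this depth. A single read in shLuci replicate 2 was the only one among the 6 culture libraries. The 0 reads of the shRad21 group allow up to 0.0511 CPM by an exact Poisson interval, which, like the other counting intervals, covers counting error only, since PCR copies could not be removed by molecular identifiers. In exact two-sided permutation tests of 3 against 3 libraries, each of the 5 non-overlapping genes gave p = 0.1, the smallest that this design allows, and Il1a gave 0.4.

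**Figure D2:**
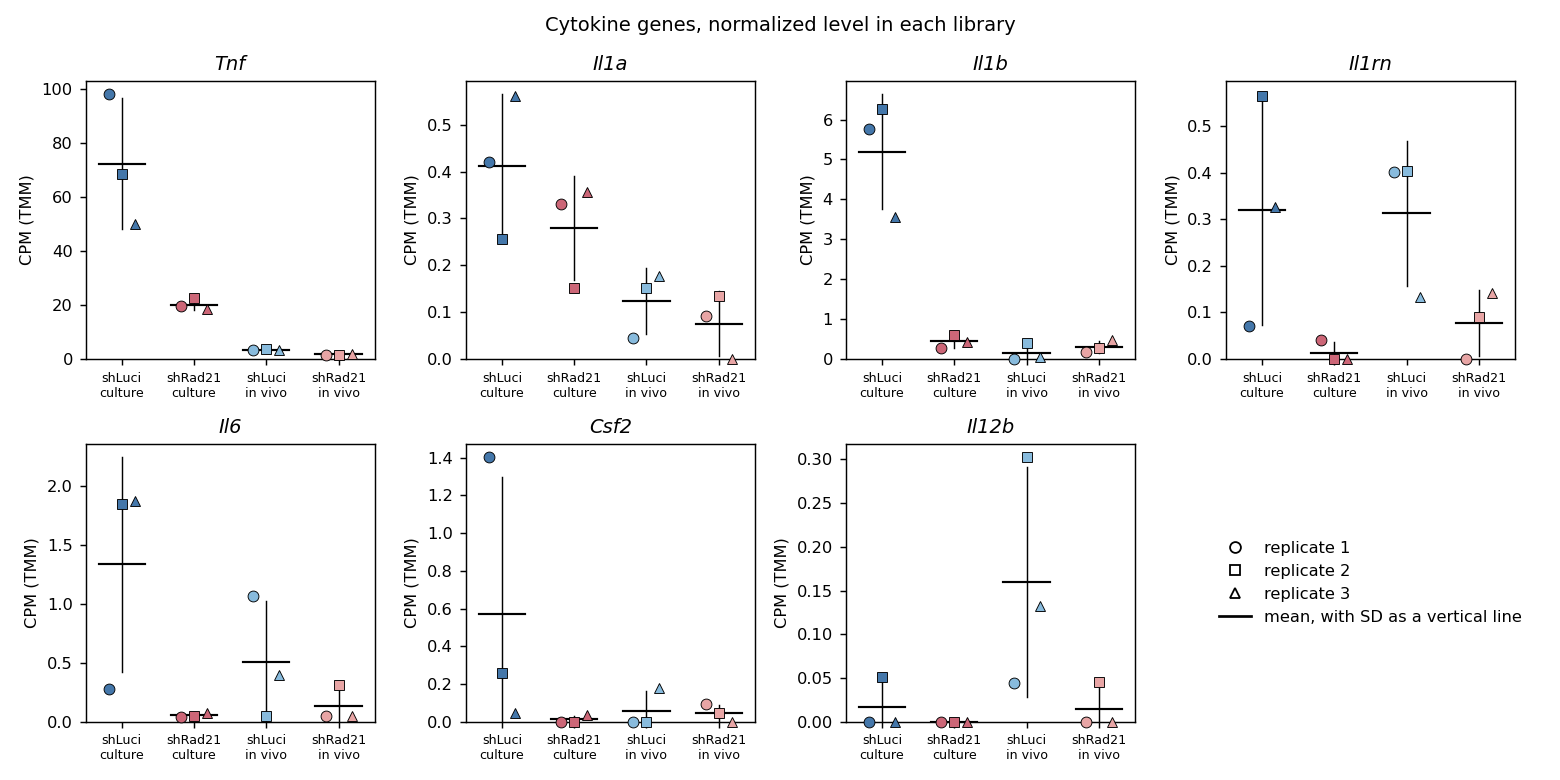
TMM-scaled CPM (y axes, starting at 0 and scaled for each gene) of the 7 cytokine genes in the 4 groups (x axes), with 1 point per library. Horizontal lines are means of 3 libraries and vertical lines are SD, drawn down to 0 at most. The shLuci culture points lie above the shRad21 culture points for Tnf, Il1b, Il6, Il1rn and Csf2. For Il1rn and Csf2 the groups are apart only through depth, near the floor. The in vivo groups are apart for Tnf alone.

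In vivo, the same contrast was tested in cells sorted from transplanted recipients. Tnf was the 1 member with counts enough for the test, and it fell. Of 15938 genes tested, 11.0% were called, 5.32% lower and 5.65% higher. Tnf had 76, 72 and 79 counts in shLuci and 36, 36 and 42 in shRad21, or 3.50 ± 0.126 against 1.75 ± 0.199 CPM (SD, n = 3). The groups were tight and did not overlap. The log2 fold change was -0.99 ± 0.23 (SE; edgeR adjusted p = 0.0220). The size of the change hardly depended on any 1 library (-1.08 to -0.93), but with 1 library fewer the call held only without shLuci replicate 1 (0.0465). It was lost without shLuci replicate 2 (0.0645) or 3 (0.0530) and without shRad21 replicate 1 (0.0754), 2 (0.0649) or 3 (0.0549).

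The other 6 members had 0 to 24 counts per library in vivo, and their groups overlapped. Tnf was thus the 1 member of 7 that lay lower without overlap, while 10.4% of 31506 genes with at least 1 count did so in CPM and 7.78% in raw counts. Il1b did not lie lower, with 0, 8 and 1 counts in shLuci and 4, 6 and 10 in shRad21. The pooled 9 and 20 reads put the knockdown at 2.21 times the control, with a counting interval of 0.961 to 5.50, so no difference was detectable. Il1a had 1, 3 and 4 against 2, 3 and 0 counts (control to knockdown ratio 1.61, interval 0.465 to 6.26).

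Il6 was uneven among the controls in vivo, with 24, 1 and 9 counts in shLuci and 1, 7 and 1 in shRad21. The pooled ratio of 3.80 (1.79 to 9.02) exceeded counting error, while the groups overlapped and the exact two-sided permutation test gave p = 0.2. Il1rn had 9, 8 and 3 counts in shLuci and 0, 2 and 3 in shRad21, with a pooled ratio of 4.03 (1.47 to 13.7) and p = 0.2 in the same exact test. The highest knockdown library (0.141 CPM) was just above the lowest control library (0.133 CPM).

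Csf2 was at or under the floor in 5 of the 6 in vivo libraries, with 0, 0 and 4 counts in shLuci and 2, 1 and 0 in shRad21. Il12b had 1, 6 and 3 counts in shLuci and 0, 1 and 0 in shRad21, and the 6 reads of shLuci replicate 2 were its only value over the floor in the whole series. The Il12b ratio of 10.1 had a counting interval of 1.43 to 437, and the groups shared a value of 1 read. Fitted without the filter, none of the 6 was called in vivo (edgeR adjusted p of 0.212 for Il6 and higher for the others).

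Whether the knockdown effect itself differed between culture and in vivo was tested in 1 model of the 12 libraries, in which 4.67% of 17050 genes were called (3.03% lower, 1.64% higher). Il1b differed, by -4.65 ± 0.95 on the log2 scale (SE; edgeR adjusted p = 0.0112), the effect being lower in culture. Il1b passed the filter of this model through its shLuci culture libraries, where it was high, so the call is a description. The value rests on the 9 and 20 in vivo reads given above and ranged from -7.04 to -4.06 as libraries were left out. The call was lost without shRad21 in vivo replicate 3, the library with 10 of those 20 reads (-4.23; adjusted p = 0.0585). For Tnf the difference of -0.84 ± 0.32 was not past the threshold (edgeR adjusted p = 0.177). It was past it without shLuci culture replicate 3 (-1.05; 0.0268) and without the filter on low counts (-0.86; 0.00952). Without the filter the edgeR adjusted p of Il1b was 1.53e-08 beside 0.0112 with it, so p-values of that fit are a description. For Il6 the difference with the filter was -2.63 ± 1.53 (0.413). Kit, sort and setting cannot be told apart in these values.

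In control cells, Tnf and Il1b were far higher in culture than in vivo. Tnf averaged 72.3 CPM in culture and 3.50 CPM in vivo, a log2 difference of 4.36 ± 0.22 (SE; edgeR adjusted p = 1.47e-10), and Il1b averaged 5.19 against 0.149 CPM (5.14 ± 0.63; 3.26e-06). Here too Il1b passed the filter through shLuci culture, the higher group, and its call is a description. The ranges did not overlap for Tnf, Il1b and Il1a, and 37.8% of the genes lay higher in culture without overlap. This contrast called 74.2% of 17050 genes, 37.1% in each direction, so a call in it is common. Without shLuci in vivo replicate 2, which held 8 of the 9 control reads, the Il1b difference was 7.53. For Il6 the difference of 1.40 ± 0.74 was not called (adjusted p = 0.0976), and it was called without shLuci culture replicate 1 (1.85; 0.0356) and without shLuci in vivo replicate 1 (2.54; 0.0151). Il1rn stood at 0.321 ± 0.247 and 0.312 ± 0.155 CPM (SD, n = 3) in culture and in vivo. These values share the shLuci libraries with the knockdown comparisons.

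Ordered by mean CPM, Tnf ran from shLuci culture to shRad21 culture, shLuci in vivo and shRad21 in vivo, and each group was apart from the next. For Il1b, shLuci culture stood apart from the others, and shRad21 culture (0.441 CPM), shRad21 in vivo (0.308 CPM) and shLuci in vivo (0.149 CPM) overlapped with their neighbors in the order. For the other 5 genes every pair of neighboring groups overlapped. Across the 12 libraries, log2 CPM of Tnf correlated with that of Il1b at Pearson r = 0.813 and with that of Il6 at r = 0.369. The 3 genes closest to Tnf among 13219 were Psrc1 (r = 0.991), Rps2 (0.989) and Rpl32 (0.989). Those closest to Il1b were Lman1 (0.958), Col18a1 (0.950) and Afp (0.948), and those closest to Il6 were Eloa (0.923), Syk (0.895) and Csgalnact2 (0.894). The 12 points share the setting and the kit, which alone separate them into clusters, and the correlations are given as descriptions.

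The receptors of these cytokines were expressed in all groups, and all 12 were tested. In culture 4 fell and none rose, and with the replicate block 5 fell (Il12rb2 added) and Csf2rb2 rose. Il1r1, the signaling receptor of interleukin 1, went from 134 to 138 CPM in shLuci to 42.5 to 55.8 CPM in shRad21 (log2 -1.46 ± 0.10, SE; edgeR adjusted p = 1.53e-05). Il1r2, a decoy receptor for the same ligands, fell by about as much (-1.46 ± 0.15; 0.000191). Il6ra, the ligand-binding subunit of the interleukin 6 receptor, fell by 1.12 ± 0.13 on the log2 scale (0.000278), and Tnfrsf1b, the TNF receptor found mainly on blood cells, by 0.54 ± 0.08 (0.00123). Tnfrsf1a, the widely expressed TNF receptor, averaged 144.7 CPM in shRad21 and 144.9 CPM in shLuci. The shared signaling chains Il6st and Csf2rb did not pass the test either (-0.09 and -0.01). The median over the 12 receptors was -0.17, beside -0.004 over all genes tested.

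In vivo 5 receptors fell and none rose, with a median of -0.12 beside -0.002 over all genes tested. Il1r2 fell by 1.48 ± 0.24 on the log2 scale (SE; edgeR adjusted p = 0.00370) and Il6ra by 0.81 ± 0.11 (0.00183). These calls held with any library left out. Il1r1 (-0.79 ± 0.21; 0.0392) lost its call without shLuci replicate 1 (0.116) or 2 (0.112) and without shRad21 replicate 1 (0.130) or 3 (0.142). Its groups touched, with 48.1 to 71.3 CPM in shRad21 and 70.3 to 128 CPM in shLuci. The interleukin 12 receptor chains Il12rb1 (-0.38; 0.0437) and Il12rb2 (-0.47; 0.0452) were at the threshold. Il12rb1 was lost without any 1 of the 6 libraries (0.0524 to 0.131), and Il12rb2 was lost without shLuci replicate 1 or 2 or any 1 of the shRad21 libraries (0.0723 to 0.167). With the replicate number as a block, the in vivo adjusted p-values were 0.0742 for Il12rb1 and 0.0510 for Il12rb2. Tnfrsf1b was not called in vivo (-0.01), and its knockdown effect differed between the settings (-0.52 ± 0.10; adjusted p = 0.0101).

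**Figure D3:**
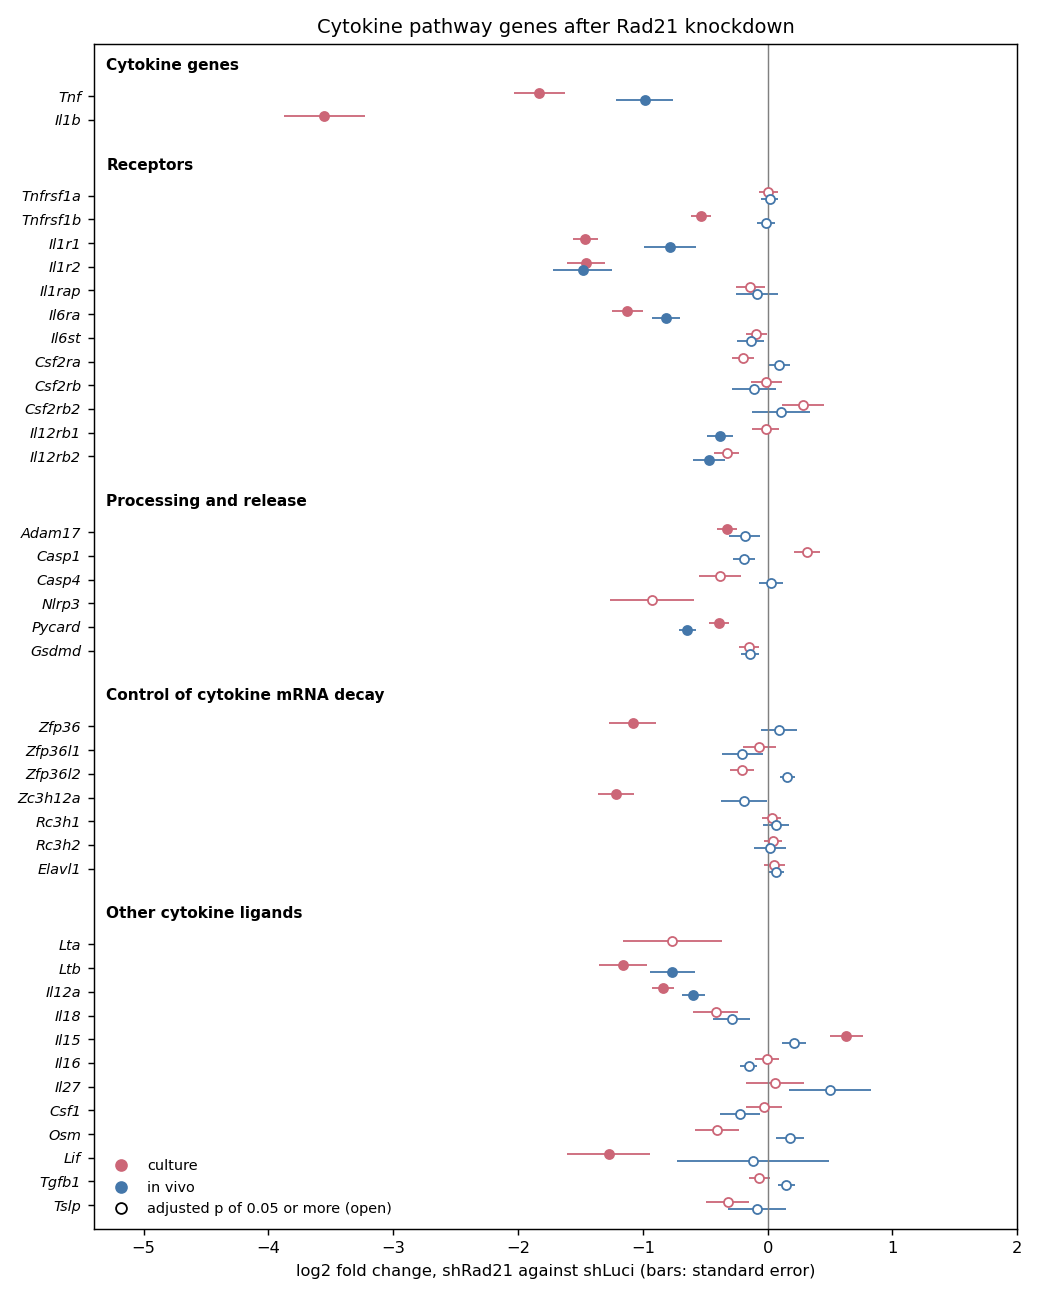
Log2 fold changes of shRad21 against shLuci (x axis) with standard errors for the tested cytokine genes and for 4 lists of genes of the same pathways (y axis), in culture (red) and in vivo (blue). Filled points passed an adjusted p of 0.05. Tnf, Il1b, Il1r1, Il1r2 and Il6ra lie to the left in culture, and Tnfrsf1a, Il6st and Csf2rb lie near 0 in both settings.

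Of 6 genes for processing and release of cytokines, 2 fell in culture. Adam17, the protease that sheds TNF from the cell surface, fell by 0.33 ± 0.08 (log2, SE; edgeR adjusted p = 0.0228), and Pycard, the inflammasome adaptor, by 0.39 ± 0.08 (0.00897). Adam17 lost its call without shLuci replicate 2 (0.0866) and without shRad21 replicate 1 (0.107) or 2 (0.113), and Pycard without shRad21 replicate 2 (0.0573). With the replicate number as a block, Casp4 was also called lower. Casp1, the protease that matures interleukin 1 beta, was called higher, so that 3 fell and 1 rose. In vivo, 1 of 5 tested genes fell, again Pycard (-0.64 ± 0.07; 0.000479), with its call kept without any 1 library. The median over the list was -0.35 in culture and -0.18 in vivo.

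Among 7 genes that control the decay of cytokine mRNA, Zfp36 and Zc3h12a fell in culture. Both encode proteins that bind cytokine transcripts and promote their decay, and both are themselves induced by inflammatory signals. Zfp36 went from 61.1 to 91.9 CPM in shLuci to 25.5 to 40.6 CPM in shRad21 (log2 -1.08 ± 0.19, SE; edgeR adjusted p = 0.00309), and Zc3h12a from 82.6 to 98.6 CPM to 30.8 to 47.1 CPM (-1.21 ± 0.14; 0.000378). None of the 7 was called in vivo, where Zfp36 stood at 0.09 and Zc3h12a at -0.19. The effects differed between the settings for both genes (-1.16 ± 0.27, adjusted p = 0.0246, and -1.01 ± 0.24, adjusted p = 0.0275). Each of these 2 differences lost its call in 7 of the 12 fits without 1 library, with adjusted p-values up to 0.0751 and 0.0835. Zfp36l1, Zfp36l2, Rc3h1, Rc3h2 and Elavl1 lay between -0.20 and 0.05 in culture.

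Of 18 other cytokine ligand genes, 12 were tested in culture, where 3 fell and 1 rose. Ltb, which encodes lymphotoxin beta of the TNF family, fell by 1.16 ± 0.19 (log2, SE; edgeR adjusted p = 0.00257), from 210 to 359 CPM in shLuci to 94.6 to 148 CPM in shRad21. Il12a, the p35 subunit that pairs with the product of Il12b, fell by 0.84 ± 0.09 (0.000195). Il12a was thus measured at 47.5 to 48.4 CPM in shLuci culture libraries where Il12b was at or under its floor. Lif (-1.27 ± 0.33; 0.0271) lost its call when any 1 library other than shLuci replicate 3 was left out (0.0517 to 0.138). Il15, which supports lymphocytes and natural killer cells, rose by 0.63 ± 0.13 (0.00852). With the replicate block, Lta and Osm were called lower too, so that 5 fell and 1 rose. Il3 had 0 counts in all libraries.

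In vivo, 11 of the 18 were tested, and 2 fell. These were Ltb (-0.76 ± 0.18; edgeR adjusted p = 0.0246) and Il12a (-0.59 ± 0.09; 0.00355). The call of Ltb was lost without shRad21 replicate 1 (0.0764) or 2 (0.0829). Il15 was not called (0.21). The list median was -0.36 in culture and -0.12 in vivo.

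Ltb and Lta lie next to Tnf, and the gene neighborhoods were examined for that reason. Of 27 protein-coding genes starting within 100 kb of a member, 17 were tested in culture, and 1 of these, Ltb, fell, at -7.57 kb from the Tnf start (negative toward lower coordinates of chromosome 17). Lta, at 3.34 kb, had a log2 fold change of -0.76 ± 0.39 (SE; edgeR adjusted p = 0.251) and a level of 1.95 CPM in shLuci against 1.10 CPM in shRad21. Beyond these, Lst1 at -13.6 kb stood at -0.48 (0.0781). The remaining 10 tested neighbors of Tnf, from Ly6g5b at -86.6 kb to H2-D1 at 60.7 kb, lay between -0.16 and 0.49 and none was called.

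In vivo 4 of 17 tested neighbors fell. Ltb and Lst1 (-0.98 ± 0.17; edgeR adjusted p = 0.00597), a regulator of leukocytes, are neighbors of Tnf. The others were Ckap2l (-0.43; 0.0295), a spindle gene at -12.8 kb from Il1a and -73.9 kb from Il1b, and Tyms (-0.30; 0.0129), the thymidylate synthase gene 60.5 kb from Il6. Ckap2l lost its call without shLuci replicate 1 or 2 or shRad21 replicate 1 or 3 (0.0674 to 0.131), and Tyms without shRad21 replicate 1 (0.0529) or 3 (0.0600). Lst1 kept its call without any 1 library. No neighbor was called in the test of the difference between culture and in vivo (0 of 18, edgeR).

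**Figure D4:**
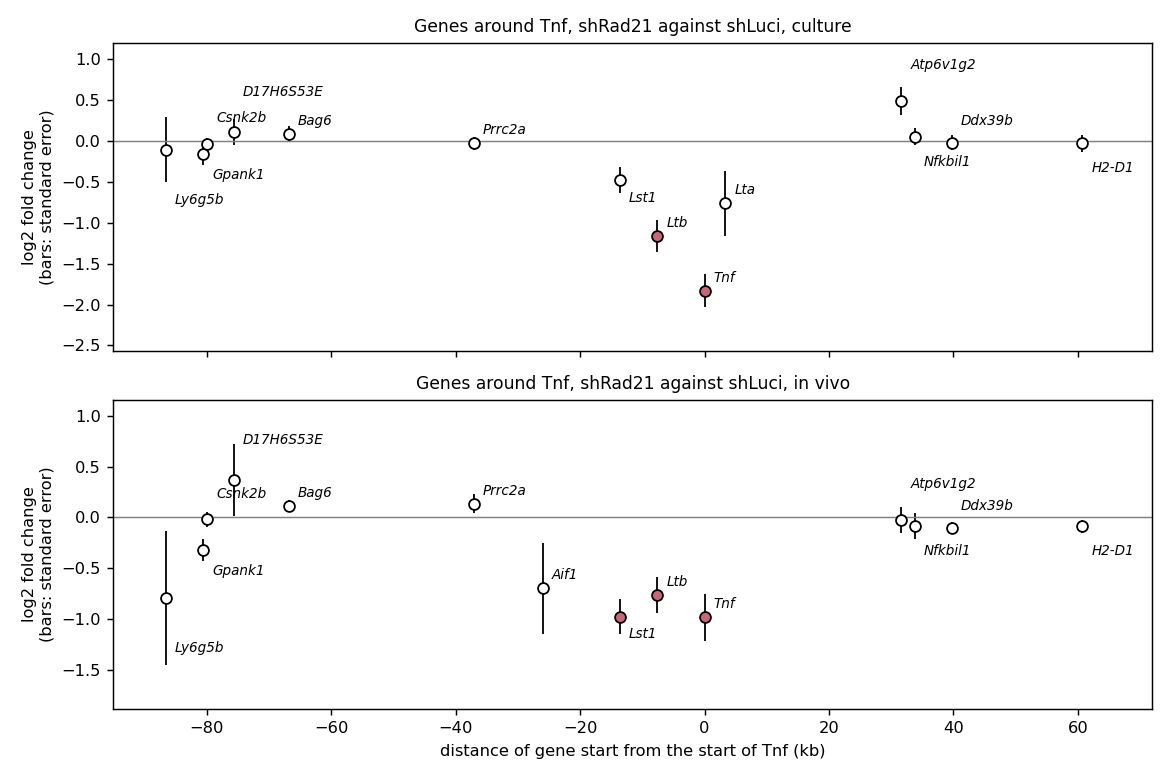
Log2 fold changes of shRad21 against shLuci with standard errors (y axes) for the tested genes around Tnf, by distance of their start from that of Tnf in kb (x axis), in culture (top) and in vivo (bottom). Filled points passed an adjusted p of 0.05. Tnf and Ltb are filled in both panels and Lst1 in vivo, and genes farther away than 30 kb are open.

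Macrophages, dendritic cells, neutrophils and mast cells can also produce these cytokines, so their markers were read in the same libraries. In culture, 5 of 8 tested markers of monocytes and macrophages fell, namely Csf1r (-1.82), Cd68 (-1.16), Cd14 (-1.97), Itgam (-1.84) and Mpeg1 (-1.50), and Fcgr1 rose (0.91). Mpeg1 lost its call without shLuci replicate 2 (edgeR adjusted p = 0.0592) and Fcgr1 without shLuci replicate 1 or 2 or shRad21 replicate 2 or 3 (0.0621 to 0.0958). The summed level of the 10 markers was 199 to 276 CPM in shLuci and 196 to 206 CPM in shRad21, ranges that overlapped. Adgre1 and Ly6c2 were at or under the floor in shRad21 culture. The 5 dendritic cell markers summed to 9.57 to 15.7 CPM in shLuci and 3.17 to 4.60 CPM in shRad21, and both tested ones, Itgax and Zbtb46, fell.

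In vivo, 5 of 9 monocyte and macrophage markers fell (Csf1r, Cd68, Itgam, Ly6c2 and Ctss), and their sum was 638 to 703 CPM in shLuci and 540 to 603 CPM in shRad21. The calls of Csf1r (without shRad21 replicate 3, edgeR adjusted p = 0.0520), Itgam and Ly6c2 were each lost with libraries left out. Itgam was lost without shLuci replicate 1 or 2 or shRad21 replicate 1 or 3 (0.107 to 0.169), and Ly6c2 without shLuci replicate 2 or 3 or shRad21 replicate 2 or 3 (0.0630 to 0.119). Dendritic cell markers summed to 10.9 to 13.3 CPM against 4.47 to 5.30 CPM, and 1 of 4 tested was called, Itgax, which fell. The summed mast cell and basophil markers went the other way, with 15.2 to 19.9 CPM in shLuci and 26.4 to 83.5 CPM in shRad21 in culture, and 89.2 to 126 against 143 to 210 CPM in vivo. In culture 1 of 6 tested markers was called, Cpa3, which rose (3 rose with the replicate block), and the list median was 1.196. In vivo 3 of 7 rose (Cpa3, Cma1 and Tpsb2) and the median was -0.05. With the replicate block, 2 rose in vivo (Cpa3 and Tpsb2) and 1 fell (Mcpt8), and Cma1 was not called (edgeR adjusted p = 0.0626). Cma1 lost its call without shLuci replicate 1 (edgeR adjusted p = 0.0653) or 3 (0.0706) and without shRad21 replicate 3 (0.116).

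Neutrophil markers were nearly absent in culture (12.9 to 31.0 CPM in shLuci and 7.01 to 14.4 CPM in shRad21, with Ly6g at 0 in both) and plentiful in vivo (1447 to 1803 and 1026 to 1169 CPM). Among the neutrophil markers, 2 were tested in culture and 7 in vivo, and Mpo alone was called in each setting, lower. Of 5 T and NK cell markers, Cd3e and Cd3d were at or under the floor in both culture groups. Nkg7, Klrb1c and Gzmb were not. The 5 summed to 40.2 to 132 CPM in shLuci and 27.2 to 120 CPM in shRad21 in culture. In vivo the sums were 303 to 410 CPM and 240 to 266 CPM. In culture 1 of 2 tested markers fell, and in vivo 1 of 3 fell and 2 rose. In bulk samples, fewer cells of a type and less RNA per cell cannot be told apart. The part of monocyte, dendritic and mast cell markers in the changes of Tnf, Il1b and Il6 was not tested.

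**Figure D5:**
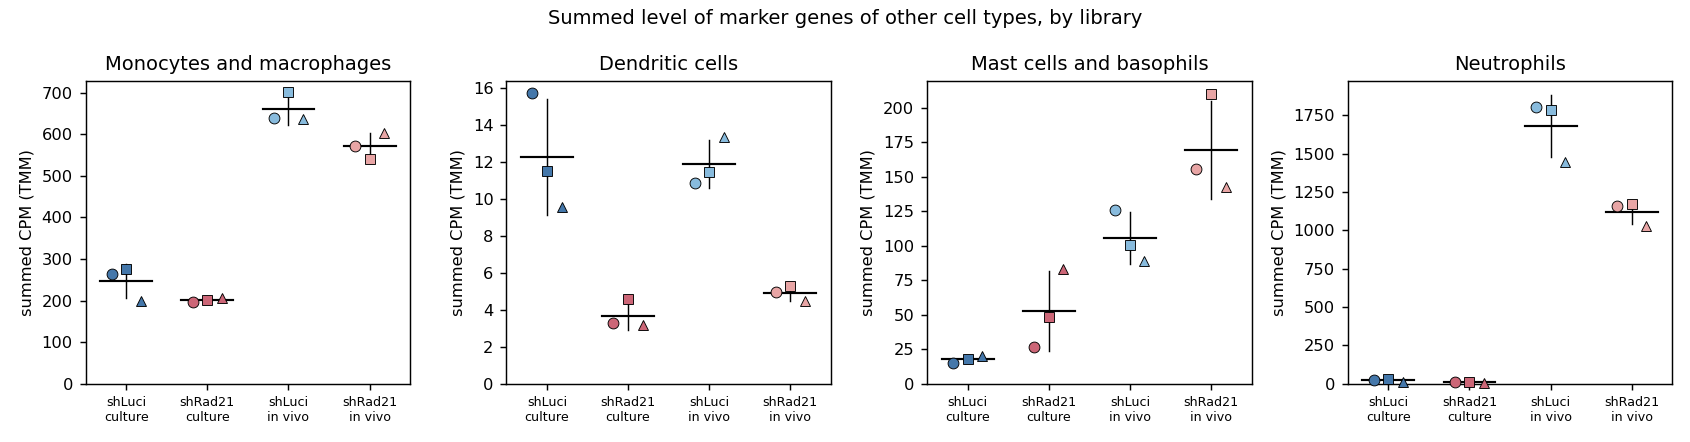
Summed TMM-scaled CPM (y axes, starting at 0) of marker genes of 4 other cell types in the 4 groups (x axes), with circles, squares and triangles for replicates 1, 2 and 3, means as horizontal lines and SD as vertical lines. The sums of dendritic cell markers are lower and those of mast cell and basophil markers higher in shRad21 in both settings, while the monocyte and macrophage sums overlap in culture.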

How the data were processed

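RNA of 12 samples (4 groups of 3) was sequenced. Per the labels and the methods, the authors aligned reads to GRCm38 with TopHat2 2.0.11 and counted them per Ensembl gene with HTSeq 0.6.1. The annotation release and the strand setting are not given in the sources used here. The values used are the raw counts deposited by the authors. The members and gene lists were chosen with earlier results of these data known.

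Counts were tested with edgeR 4.0.16 (R 4.3.3) by the quasi-likelihood method after TMM scaling and filterByExpr. The filter asked for 15 counts in total. It also asked for 10 counts, scaled to the median depth, in as many libraries as the smallest group held. These were 3 libraries in the main fits and fewer in fits with a library left out. Benjamini-Hochberg adjustment was over all genes tested, with a threshold of 0.05. Each knockdown was fitted within its setting. The control comparison and the difference of effects used 1 model of 12 libraries. Single values were compared by exact two-sided permutation, and pooled counts by exact 95% Poisson or conditional binomial intervals. Exonic lengths came from GENCODE M21 (GRCm38). Named genes were the 7 members, Rad21, fixed lists of receptors, processing, mRNA decay and other ligand genes (those past the threshold), protein-coding neighbors within 100 kb, the 3 genes with the highest correlation among those whose log2 CPM averaged 1 or more, and cell type markers. Listed genes named without a call, such as Tnfrsf1a or Elavl1, were chosen after their values were seen.

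Same-numbered culture libraries deviated together (r of 0.287 to 0.303 for same numbers, -0.368 to 0.0642 for others). The labels number the replicates but state no pairing. Main fits and permutation tests were unpaired, and the fit with the replicate block was an alternative. With the block, the culture log2 fold change was -1.78 ± 0.13 (SE) for Tnf and -3.51 ± 0.27 for Il1b, and both were called. Other alternatives were DESeq2 1.42.0, upper-quartile or library-size scaling, no filter, 1 model of 12 libraries, and leaving out each library. The scripts were tested on simulated data.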

Additional observations from a re-analysis of the deposited data

Results flagged for a closer look

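The effect of the Rad21 knockdown on Il1b differed between the settings, by -4.65 on the log2 scale in a test of the difference itself (edgeR adjusted p = 0.0112). Il1b was lower in shRad21 in culture in 3 of 3 libraries and overlapped with the controls in vivo, where its counts were between 0 and 10. Il1b entered this test through its shLuci culture libraries, where it was high, and the call was lost without shRad21 in vivo replicate 3 (edgeR adjusted p = 0.0585).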

How the results depend on the processing

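Alternatives were run for the tested members, Rad21 and the called genes of the lists, neighborhoods and markers named, and none of these changed direction. The count of members called rose without the filter on low counts, from 2 to 5 in culture, from 2 to 4 between control cells and from 1 to 2 for the difference of effects. The p-values without the filter are not on the scale of the main fits, so each of these counts is a description. With 1 library left out, members called ranged from 0 to 1 in vivo and from 0 to 2 for the difference of effects, and genes called from 1352 to 2817 in culture, from 951 to 1562 in vivo and from 492 to 845 for the difference. Without the filter, genes called rose from 2213 of 15543 to 2988 of 26672 in culture and from 12652 to 13770 between control cells. They rose from 1749 of 15938 to 2829 of 31506 in vivo and from 796 to 1409 for the difference, where DESeq2 gave 1294. The causes were not tested. The median log2 difference of all genes between control cells was -0.29 without the filter and -0.18 under library-size scaling, beside -0.0062 with the filter and TMM.

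Genes called with a replicate block were 3186 in culture, 1678 in vivo, 12653 between control cells and 991 for the difference. The calls of members stayed at 2, 1, 2 and 1. In vivo the numbers did not pair the samples (r of 0.00991 to 0.0957 for same numbers). Depth limits Il1a, Il1rn, Il6, Csf2 and Il12b, each with fewer than 10 reads in most libraries.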
